A study of Triticum aestivum and Triticum turgidum subsp. durum with 27 samples.

Results

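The glume transcriptome of the deletion line CS_5AL-10 was set against that of its parent cultivar Chinese Spring (CS) under severe water stress (SS). The comparison rests on 6 of the 27 arrays of the study, 3 of CS_5AL-10 at SS and 3 of CS at SS, chosen by the genotype and the treatment in their titles. All 61179 wheat probe sets of the Affymetrix Wheat Genome Array were members, and 34089 of them passed the filter on low intensities and were tested. Both genotypes are hexaploid bread wheat (Triticum aestivum). They were grown in garden soil to an age of 3 months, and the glumes, the green bracts that enclose the wheat floret, were taken. The labels put this at 10 days after anthesis, whereas the paper's methods give a slightly later day. Watering of the stressed plants was stopped 3 days after anthesis, and control plants (CTRL) were kept at 28% soil water. A milder stress (MS) of both genotypes and the durum wheat Creso made up the rest of the study. CS_5AL-10 is 1 cytogenetic stock, so the missing segment and any other difference between that stock and CS cannot be told apart. One label field names the deletion arrays CS as well, and their titles and descriptions give the deletion line.

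Hexaploid wheat carries 3 related genomes, A, B and D, and most genes have a homoeologous copy in each of them. A deletion line has lost the end of 1 chromosome arm, here the outer end of 5AL (the long arm of chromosome 5A), and keeps the copies on 5B and 5D. An array probe set can bind a single copy or several of them, so the loss of an A genome copy can empty a probe set, lower it in part or leave it almost where it was. Drought makes wheat tissues accumulate abscisic acid (ABA), proline, dehydrins and sugars and dismantle part of the photosynthetic apparatus, and the glume is a green tissue that feeds the grain beside it.

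In CS_5AL-10 at SS, 734 of 34089 probe sets (2.15%) were called different from CS, which means an adjusted p under 0.05 (limma, Benjamini-Hochberg) and at least a 2-fold difference. Of these, 260 (0.763% of those tested) were higher in CS_5AL-10 and 474 (1.39%) were lower. The falls reached much further than the rises. The median of the called falls was -1.80 on the log2 scale and 132 of them exceeded 8-fold, whereas the median of the called rises was 1.38 and 1 exceeded 8-fold. The median over all tested probe sets was 0.07. The 3 values of CS_5AL-10 and the 3 of CS did not overlap for 716 of the 734 called probe sets, and 22.5% of all tested probe sets were separated in the same way. All differences are CS_5AL-10 minus CS on the scale of log2(intensity + 16), which understates the change of dim probe sets, and the values after ± are standard errors. In whole-tissue RNA, fewer cells of a type and less RNA per cell cannot be told apart. With the 6 arrays alone in the fit 341 probe sets were called, 69 higher and 272 lower. The methods' t-test on the same values called 3 after adjustment, all lower: those for photosystem I subunit III and LOC542991, described with the falls, and Ta.1434.1.A1_at (-5.17), which carries no name.

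The study had tested 25 probe sets by PCR as candidates for the deleted segment. A specific PCR result was obtained for 13 of them, and the other 12 were not resolved. Not every result put the sequence of the probe set itself in the segment, and the exception was Ta.3072.1.S1_at, whose own haplotype was assigned to all genomes. The study picked these probe sets for their low signal in CS_5AL-10 on these arrays, so their direction at SS is not independent evidence. All 25 were lower in CS_5AL-10 at SS, by -3.58 to -8.17. The deposited intensities ran from 1.15 to 144 in CS_5AL-10 and from 618 to 13356 in CS, with no overlap for any of them. Of the 25, 3 lay above the array's median on at least 1 CS_5AL-10 array. The median difference was -5.48 for the 13 probe sets with a PCR result and -5.18 for the 12 unresolved ones. The other treatments, whose arrays the study also used to pick them, gave like values, with a median over the 25 of -5.7 at CTRL and -5.81 at MS. By a relaxed rule the study also picked a longer list of genes as low in CS_5AL-10 on these arrays. Its probe sets are not named in the sources used here, so other falls may belong to it.

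A rule that used only the rank of each probe set within its array was applied to the whole chip. At SS, 53 probe sets lay at or under the array's median on all 3 CS_5AL-10 arrays and above the 75th percentile on all 3 CS arrays, and 0 did so with the genotypes exchanged. The count was 8 with the 25th percentile as the limit for low and 15 with the 90th percentile as the limit for expressed, again with 0 the other way. The rule itself fixed large falls at SS, with a median of -4.9. Of the study's 25 candidates, all but the 3 above the array's median on some CS_5AL-10 array are among the 53. On the other arrays of the 2 genotypes, all 53 were called lower at CTRL and at MS, and 42 of them met the rank rule at CTRL and 42 at MS. Only 5 of the 53 belong to a gene with a chromosome in the gene table, and all 5 genes lie on 5A.

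Histone H1, the linker histone that binds the DNA between nucleosomes, stood among the largest falls. Histone H1 WH1A.4 (Ta.24920.1.S1_x_at, gene LOC606312 on 5A) had intensities of 18.1, 1.6 and 4.94 in CS_5AL-10, against 6420, 6170 and 8549 in CS. Its difference was -8.17 ± 0.26 (limma adjusted p = 1.8e-16) at SS and -8.53 at CTRL. The gap between the genotypes was far wider than the spread within either of them. Histone H1 WH1B.1 (Ta.27790.1.S1_s_at, LOC606310 on 5A) had 14.1, 21.4 and 8.39 in CS_5AL-10 and 1221, 686 and 1152 in CS, a difference of -5.00 ± 0.27 (limma adjusted p = 2.5e-12). Histone H1 WH1A.3 (Ta.28793.1.S1_x_at) fell by 4.82 ± 0.41, with 63.3, 65.6 and 28.8 in CS_5AL-10 and 1664, 1826 and 2357 in CS. Histone H1.2 (Ta.24171.1.S1_s_at) fell by 3.37 ± 0.53, and its 3 CS values, 1476, 367 and 973, were spread more widely than its CS_5AL-10 values of 45.7, 53.3 and 90.8. These 4 were the only called members of the histone and cell cycle list, which had 13 tested probe sets and a median difference of -0.40. The probe sets of WH1A.4, WH1B.1 and WH1A.3 are among the study's 25 candidates, picked for low signal in CS_5AL-10, and that of histone H1.2 is not. Near-identical histone H1 genes can share probes, so which copies each probe set reads is uncertain.

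**Figure D1:**
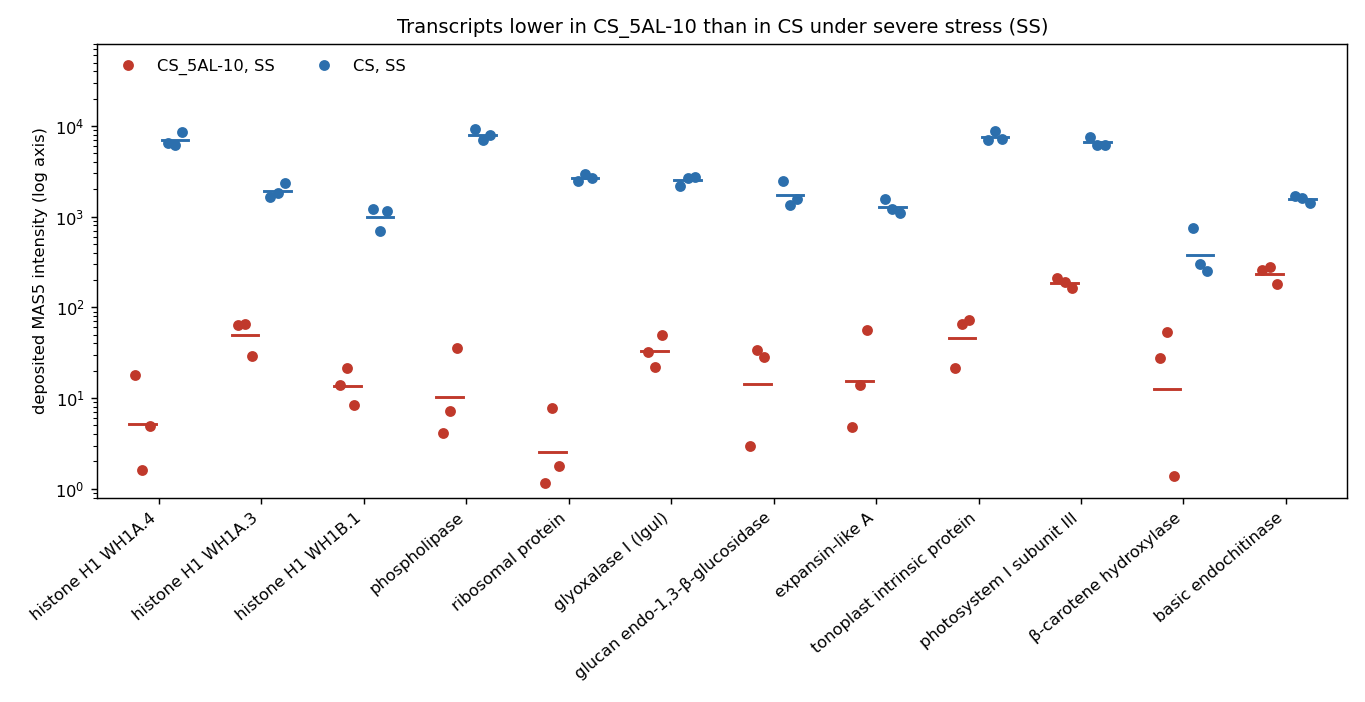
Deposited MAS5 intensity on a log axis for 12 named transcripts that were lower in CS_5AL-10 at SS, with 1 point per array (CS_5AL-10 in red at the left, CS in blue at the right, 3 arrays each) and a bar at the geometric mean of the 3 arrays. The 2 genotypes do not overlap for any of the 12, and most CS_5AL-10 points lie under 100, against CS values that reach 9168 for the phospholipase.

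Several enzymes had falls of this size. The putative phospholipase (Ta.9462.2.S1_at), of a class that cleaves membrane lipids, had 4.14, 7.16 and 35.5 in CS_5AL-10, against 9168, 7076 and 7857 in CS, a difference of -8.06 ± 0.33. Glyoxalase I (lgul, Ta.28068.1.S1_at, on 5A), the lactoylglutathione lyase that removes methylglyoxal, had 31.9, 22.1 and 49.5 in CS_5AL-10 and 2202, 2646 and 2733 in CS, a difference of -5.63 ± 0.45 (limma adjusted p = 4e-09). A second probe set of the same gene, Ta.8554.1.S1_at, differed by -0.37 and was not called. The putative glucan endo-1,3-beta-glucosidase precursor (TaAffx.128418.48.A1_at), which cleaves the callose type of glucan, fell by 5.59 ± 0.53, with values of 2.97, 33.6 and 28.3 in CS_5AL-10 and 2485, 1333 and 1552 in CS. The putative iron-sulfur cluster-binding protein (Ta.12699.1.A1_at) fell by 5.55 ± 0.40, and the putative dihydrolipoamide acetyltransferase (Ta.3072.1.S1_at), the acyl-transferring part of a 2-oxo acid dehydrogenase complex, by 4.90 ± 0.34. For the transferase the CS values were close together, at 1177, 1262 and 1197, while those of CS_5AL-10 were 48.2, 10.6 and 19.8. All of these falls had limma adjusted p-values of 7.7e-08 or less. Their probe sets are all among the study's 25 candidates, picked for low signal in CS_5AL-10 on these arrays. These p-values are therefore not independent evidence.

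Proteins of other roles had gaps of the same size. The putative ribosomal protein (Ta.28258.1.S1_at) had 1.15, 7.8 and 1.78 in CS_5AL-10, against 2497, 2935 and 2644 in CS (-7.07 ± 0.27). Expansin-like protein A (Ta.25481.1.S1_at), of a family that loosens cell walls, had 4.79, 13.8 and 56.9 in CS_5AL-10 and 1568, 1206 and 1091 in CS (-5.12 ± 0.33). VIP3 protein (Ta.28556.1.S1_at), which in Arabidopsis is a subunit of the Paf1 complex of transcribing RNA polymerase II, fell by 5.48 ± 0.18, with 4.99, 5.68 and 8.68 in CS_5AL-10 and 856, 1206 and 1049 in CS. The putative Hsp70 binding protein (Ta.9424.1.A1_at) fell by 3.86 ± 0.40, and 2 of its CS_5AL-10 arrays, at 87.1 and 85.8, stood above the other array, at 22.8. The probe sets of these proteins are also all among the study's 25 candidates, so their falls are not independent evidence. Among the unnamed probe sets, Ta.659.5.S1_at had 11.9, 40.6 and 25 in CS_5AL-10, against 14855, 16181 and 15162 in CS, a difference of -8.53 ± 0.32, the largest in the fit. The order of the largest falls depends on the offset, and with an offset of 1 histone H1 WH1A.4 fell further (-9.97) than Ta.659.5.S1_at (-9.25).

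Most transcript clusters with an emptied probe set and other tested ones also held a probe set that differed little. The array's designers grouped sequences into clusters, whose number is the middle part of a probe set's ID, and a cluster can hold homoeologous copies. Clusters with the prefix TaAffx were left out of these counts. Of 91 clusters with the prefix Ta and a fall of 8-fold or more, 38 had more than 1 tested probe set. Of these 38, 4 had every tested probe set called lower, and 33 had at least 1 that differed by less than 2-fold. As 2.15% of all tested probe sets were called, a neighbour without a call is near the background. In the cluster of Ta.659.5.S1_at, the other 7 probe sets ran from -0.32 to 0.12. Beside the phospholipase at -8.06, its cluster held 2 probe sets at 0.12 and 0.18. The photosystem I reaction center subunit III (Ta.3581.3.S1_x_at), which docks plastocyanin, fell by 4.97 ± 0.34, with 210, 192 and 162 in CS_5AL-10 and 7591, 6217 and 6125 in CS. Its neighbours in the cluster differed by -0.48 and -0.19 and were not called. A photosystem I protein is on the study's longer list of genes picked as low in CS_5AL-10 on these arrays. The fall of subunit III may therefore not be independent evidence. The acetyltransferase cluster gave -4.90 beside 3 values of -0.58 to -0.47, and the expansin-like cluster gave -5.12 and -3.16 beside -0.35, -0.24 and 0.06.

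The tonoplast intrinsic protein, an aquaporin of the vacuolar membrane, showed the 2 extremes within 1 cluster. Ta.16450.2.S1_at had 21.3, 64.8 and 72.2 in CS_5AL-10, against 7033, 8796 and 7123 in CS (-6.83 ± 0.49). Ta.16450.1.S1_a_at was bright in both genotypes, with 25022, 13700 and 8902 in CS_5AL-10 and 30804, 44031 and 31294 in CS, and differed by -1.21 ± 0.31 (limma adjusted p = 0.028). That smaller call was lost without CS_5AL-10 replicate 2 or 3 or CS replicate 2 or 3, with differences of -1.58 to -0.89 over the 6 fits that left out 1 array. The remaining probe set of the cluster differed by -0.94 and was not called. Calls were spread over all types of probe set, at 2.04% of those ending in _at, 1.49% in _a_at, 2.94% in _s_at and 2.74% in _x_at.

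On chromosome 5A the calls were concentrated in 1 stretch of the gene order. The files name no genome build, so the gene table of the CS reference assembly was used for names and gene order only. It placed 51 genes of the array on 5A, and 80 of their 98 probe sets were tested, for 46 genes. At SS, 12 of the 80 (15%) were called, 11 of them lower (13.8%). Among the 936 tested probe sets of the table's other genes, 1.92% were called and 0.748% were lower. For 13 of these 936 the chromosome is unknown. Of the 11 falls, 8 were outside the study's 25. Genes 1 to 26 of the order had 41 tested probe sets with a median difference of 0.0 and 0 falls. Genes 27 to 31 had 7 tested probe sets, all with negative differences, of -1.4 to -0.19, and 0 calls. Genes 32 to 43 had 18 tested probe sets with a median of -2.59, and all 11 falls lay among them, in 9 of the 12 genes. Genes 44 to 51 had 14 tested probe sets with a median of -0.06 and 0 calls. The bounds of these 4 stretches were set after the values were seen.

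**Figure D2:**
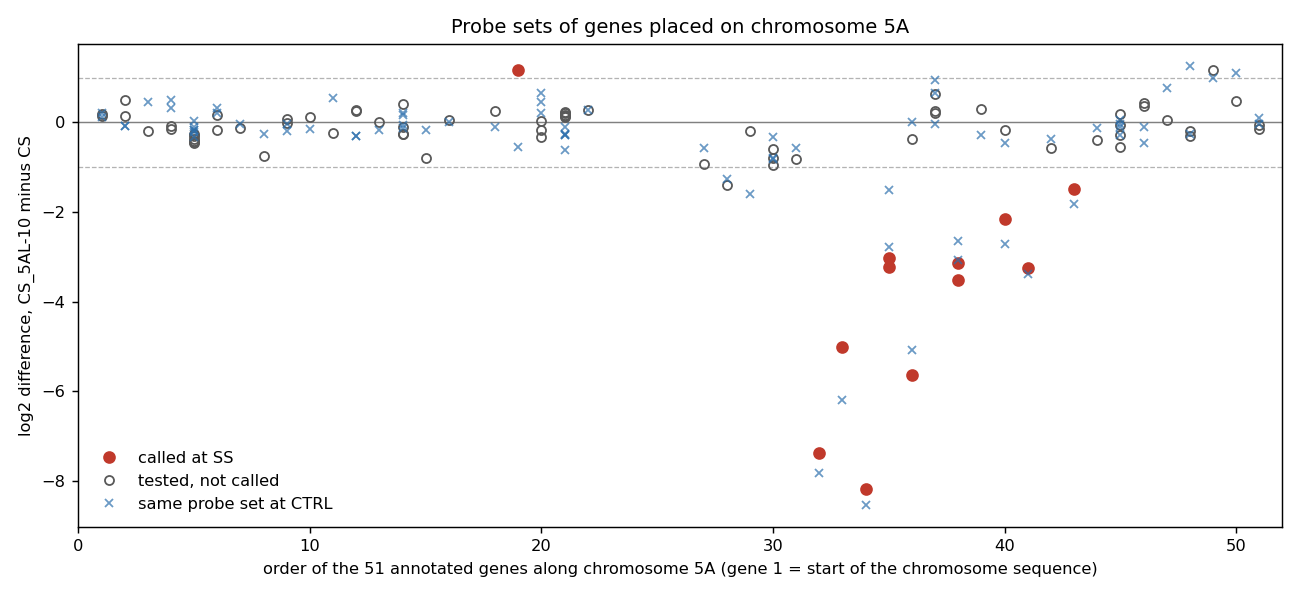
The log2 difference of each tested probe set, CS_5AL-10 minus CS, against the order of its gene along chromosome 5A; red points are called at SS, open points were tested and not called, crosses give the same probe set at CTRL, and dashed lines mark a 2-fold difference. All 11 falls at SS lie within genes 32 to 43, where the crosses at CTRL are low as well.

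Within genes 32 to 43 the falls ranged from -8.17 to -1.49. LOC542991 (Ta.3681.1.S1_x_at), chosen after its values were seen, had 40.4, 48 and 48.3 in CS_5AL-10, against 9998, 10004 and 11761 in CS, a difference of -7.37 ± 0.21 (limma adjusted p = 1.8e-17). Near it in the order stood histone H1 WH1B.1, histone H1 WH1A.4 and lgul. Smaller falls were those of LOC100125701 (-3.22 and -3.02 for its 2 probe sets), LOC606326 (-3.51 and -3.14), LOC543245 (-3.25), LOC543360 (-2.16) and LOC542784 (-1.49). LOC543360 had another probe set at -0.18. The 1 rise on 5A, LOC542866 at 1.18, lay outside this stretch, and its difference was -0.54 at CTRL. Outside 5A, 7 probe sets of placed genes fell, with the 5D gene LOC780640 (-3.33 and -3.02 for its 2 probe sets) and the 5B gene LOC543354 (-2.37) at the front. A gene's place is that of its annotated copy, and its probe set may also read a homoeologous copy elsewhere.

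β-carotene hydroxylase (Ta.27546.1.S1_at), which makes the xanthophylls that precede ABA, had 27.7, 53.2 and 1.38 in CS_5AL-10, against 742, 297 and 250 in CS. The difference was -3.35 ± 0.46 (limma adjusted p = 4.2e-05) at SS and -3.67 at MS. At CTRL it was -1.66 (limma adjusted p = 0.052), with 42.5, 29.7 and 13 in CS_5AL-10 and 169, 113 and 93.7 in CS. The difference at SS minus that at CTRL, -1.69, did not pass the test (limma adjusted p = 0.54). Another probe set named for this enzyme was brighter and was not lower in CS_5AL-10. At SS it had 1200, 1517 and 1405 in CS_5AL-10, against 1184, 545 and 809 in CS. Its difference of 0.81 was not called (limma adjusted p = 0.11). The fall of Ta.27546.1.S1_at was the only call among 25 tested probe sets of carotenoid and ABA synthesis. The median of these 25 was 0.05 (-0.01 without centring and -0.04 with quantile normalization). None of 12 probe sets for proline metabolism, 19 for dehydrins and late embryogenesis abundant proteins or 13 for ABA signalling was called, with medians of 0.19, -0.00 and -0.14. With 2.15% of all tested probe sets called, a count of 0 in lists of this size is near the background.

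Basic endochitinase (Ta.2784.1.A1_at), which cleaves the chitin of fungal walls, had 258, 276 and 180 in CS_5AL-10, against 1706, 1618 and 1400 in CS, a difference of -2.61 ± 0.31 at SS. At CTRL the difference was -1.04 (limma adjusted p = 0.069), and the test of the change between the treatments gave -1.57 (limma adjusted p = 0.28). The lipid transfer protein YLS3 (Ta.22402.1.S1_at) had 99, 140 and 115 in CS_5AL-10 and 1312, 1428 and 1250 in CS (-3.28 ± 0.23). Its difference at CTRL was -2.69. Both proteins showed tight arrays within each genotype and a wide gap between them. A lipid transfer protein is on the study's longer list of genes picked as low in CS_5AL-10 on these arrays. Whether it is YLS3 is not given, so the fall of YLS3 may not be independent evidence. CBL-interacting protein kinase 10 (CIPK10, Ta.25609.1.S1_at), of a family that relays calcium signals, had 600, 1267 and 262 in CS_5AL-10 and 2545, 1212 and 2027 in CS, and these values overlap. Its difference of -1.57 ± 0.38 (limma adjusted p = 0.021) was lost without CS_5AL-10 replicate 1 or 3 or CS replicate 1 or 3, with values of -2.10 to -1.04.

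Of 51 tested probe sets on the transcription factor list, 6 fell and 2 rose (15.7% called), with a median of 0.09. The share was 2.15% over all tested probe sets and 6% over those with an Arabidopsis match, from which many of the list's names came. The ethylene response factor matched to Arabidopsis ATERF-9 (Ta.14000.1.S1_at) had 607, 857 and 842 in CS_5AL-10, against 2262, 2175 and 3047 in CS (-1.62 ± 0.23, limma adjusted p = 7.4e-05). At CTRL its difference was -0.63 (limma adjusted p = 0.18) and at MS -2.4. The match to the salt tolerance zinc finger protein (Ta.29449.1.S1_s_at) had 1440, 1751 and 1323 in CS_5AL-10 and 4399, 4251 and 7000 in CS (-1.70 ± 0.25). The B-box zinc finger protein (Ta.28255.1.A1_at) fell by 1.70 ± 0.34, with 510, 304 and 218 in CS_5AL-10 and 1111, 1039 and 1268 in CS. Its adjusted p in limma was 0.0035, and 0.066 without CS_5AL-10 replicate 2 and CS replicate 3. The other 3 falls on this list are not of DNA-binding factors: 2 RING finger proteins, a type known as ubiquitin ligases (Ta.14091.1.S1_at, -2.01 ± 0.21, and Ta.19463.1.S1_at, -1.16 ± 0.32), and a nascent polypeptide-associated complex protein (Ta.13242.2.S1_x_at, -1.86 ± 0.19), a ribosome-bound chaperone. The 2 rises were of a bZIP factor (1.20 ± 0.29) and a MYB factor (1.08 ± 0.30).

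The rises were smaller than the falls. Among those with a descriptive name, which leaves out genes known here by a LOC number alone, the largest belonged to the match of an early light-induced protein (Ta.26997.1.S1_at). Proteins of this family bind chlorophyll in thylakoids under light stress. Its intensities were 11651, 8191 and 15163 in CS_5AL-10, against 3038, 1990 and 2788 in CS, a difference of 2.19 ± 0.40 (limma adjusted p = 0.0014). At CTRL they were 435, 683 and 393 in CS_5AL-10 and 223, 338 and 258 in CS, a difference of 0.86 (limma adjusted p = 0.31). The level at SS minus that at CTRL was 4.56 in CS_5AL-10 and 3.23 in CS, and the difference of these responses, 1.34, did not pass the test (limma adjusted p = 0.58). At MS the genotype difference was 2.65. It was the only rise among 37 tested probe sets of photosynthesis, whose median was -0.27. In that list 28 of 37 differences were negative, and 1 fall was called, that of photosystem I subunit III.

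Several enzymes rose as well. Cytochrome P450 76C2 (Ta.3813.1.A1_at) had 6590, 5949 and 10202 in CS_5AL-10, against 1637, 1854 and 2468 in CS (1.96 ± 0.24, limma adjusted p = 5.9e-06). Its difference was 0.51 at CTRL and 0.84 at MS, and the change between SS and CTRL, 1.45, did not pass the test (limma adjusted p = 0.19). A putative glutathione S-transferase (Ta.28354.3.S1_x_at), which couples glutathione to toxic compounds, had 1970, 1431 and 2585 in CS_5AL-10 and 489, 597 and 491 in CS (1.91 ± 0.21, limma adjusted p = 8.7e-07). It was also higher in CS_5AL-10 at CTRL, by 1.04 (limma adjusted p = 0.0039). A putative glycine hydroxymethyltransferase (Ta.18968.1.S1_s_at), which interconverts serine and glycine, had 11990, 8142 and 16013 in CS_5AL-10 and 2879, 5038 and 4136 in CS (1.62 ± 0.25). The match of an Arabidopsis protein that undergoes thiolation (Ta.1385.1.S1_x_at) had 11229, 6799 and 13976 in CS_5AL-10 and 1594, 4323 and 3144 in CS (1.92 ± 0.30). In the fit of the 6 arrays alone these last 2 rises missed the threshold, with limma adjusted p-values of 0.06 and 0.085.

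**Figure D3:**
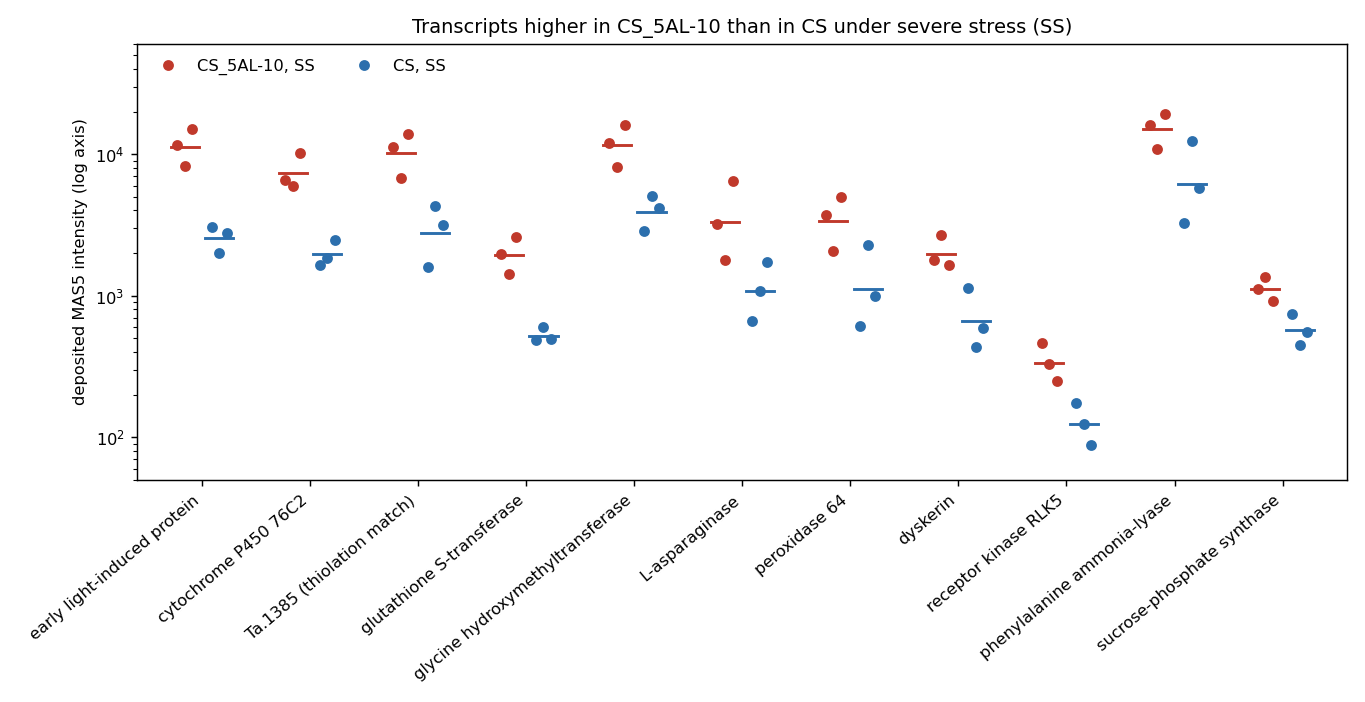
Deposited MAS5 intensity on a log axis for 11 named transcripts that were higher in CS_5AL-10 at SS, drawn as for the falls (CS_5AL-10 in red at the left, CS in blue at the right, bar at the geometric mean of 3 arrays). The groups are apart for 9 of them and overlap for peroxidase 64 and phenylalanine ammonia-lyase, where CS replicate 2 reaches the CS_5AL-10 values.

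Several rises lost their call when 1 array was left out, for more than 1 choice of that array. L-asparaginase (Ta.3504.1.A1_at), which releases ammonia from asparagine, had 3234, 1778 and 6431 in CS_5AL-10, against 668, 1074 and 1745 in CS (1.67 ± 0.42). Its call was lost without CS_5AL-10 replicate 1 or 3 or CS replicate 1 or 2, over differences of 1.17 to 2.13. Peroxidase 64 (Ta.17325.1.S1_x_at), at 1.64 ± 0.38, lost its call without replicate 1 or 3 of either genotype (1.19 to 2.14). Phenylalanine ammonia-lyase (Ta.1465.1.S1_at), the first enzyme of phenylpropanoid synthesis, had 16154, 10821 and 19199 in CS_5AL-10 and 3265, 12431 and 5809 in CS (1.33 ± 0.35). It lost its call without the same arrays (0.86 to 1.83). Dyskerin (Ta.10401.1.S1_a_at), the pseudouridine synthase of small nucleolar particles, at 1.62 ± 0.38, lost it without CS_5AL-10 replicate 2 or CS replicate 2 or 3 (1.32 to 1.98). Receptor-like protein kinase 5 (Ta.10555.1.A1_at), at 1.39 ± 0.33, lost it without CS_5AL-10 replicate 1 or CS replicate 3 (1.19 to 1.59). Sucrose-phosphate synthase (Ta.3972.1.S1_at), at 1.01 ± 0.26, lost it without CS_5AL-10 replicate 1 or 2 or CS replicate 2 or 3 (0.85 to 1.18). None of the rises in this paragraph passed the threshold in the fit of the 6 arrays alone (limma adjusted p = 0.085 to 0.23). In all, 41 probe sets were followed across the fits, including some without a name. Of these, 7 of 13 rises and 26 of 28 falls kept their call whichever 1 of the 6 arrays was left out. Many of the falls followed are the study's candidates for the deleted segment, picked for low signal on all CS_5AL-10 arrays. That choice largely fixed their calls, so the counts do not compare rises and falls on like terms.

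Signal of grain storage proteins differed widely between the glume samples of both genotypes. The mean log2 level of 11 probe sets for endosperm storage proteins was 6.59, 11.34 and 7.07 in CS_5AL-10 and 9.05, 5.77 and 10.37 in CS. The difference between the genotypes was -0.06 (exact permutation p = 1.0, two-sided, where 3 against 3 cannot go below 0.1), and none of the 11 was called. The gliadin probe set GAG56D (Ta.30782.4.S1_at) shows the range, with 415, 19527 and 694 in CS_5AL-10 and 4929, 40.1 and 11152 in CS. CS_5AL-10 replicate 2, with the most endosperm signal, was the lowest of the 3 CS_5AL-10 arrays for 51.2% of the 260 called rises, against 37.1% of all tested probe sets and 35% of the called falls. Of the 13 rises followed across the fits, 10 (76.9%) were lowest on that array, against 14.3% of the 28 falls followed. CS replicate 3, the CS array with the most endosperm signal, was the lowest of the 3 CS arrays for 11.2% of the called rises, against 25.4% of all tested probe sets and 23% of the called falls. It was the lowest CS array for 7.69% of the 13 rises followed and 17.9% of the 28 falls followed. Without these 2 arrays 527 probe sets were called, 192 higher and 335 lower. With the endosperm level as a covariate 851 were called, and 733 of the 734 were among them. The 4 pollen and anther probe sets had means of 9.44, 9.22 and 9.96 in CS_5AL-10 and 8.90, 9.42 and 9.75 in CS. The 37 photosynthesis probe sets, which mark the green glume, had means of 10.68, 11.10 and 10.96 in CS_5AL-10 and 11.26, 11.20 and 11.44 in CS, a difference of -0.38 (exact permutation p = 0.1, the smallest possible). The part of grain or green tissue content in the rises and falls was not tested further.

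The shares called in the other functional lists stand beside 2.15% of all tested probe sets and 6% of the 1066 tested probe sets with an Arabidopsis match. Many names came from these matches, which were at hand only for probe sets that had been picked as drought-responsive on these arrays. The shares also include candidates for the deleted segment, which the study had picked as low in CS_5AL-10. These are the putative glucan endo-1,3-beta-glucosidase precursor (defence), expansin-like protein A (cell wall), the phospholipase (lipid), the putative ribosomal protein and the Hsp70 binding protein. Antioxidant enzymes had 38 tested probe sets, 3 higher (2 for peroxidase 64 and the glutathione S-transferase) and 0 lower (7.89%). Pathogenesis-related and defence proteins had 48, with 2 higher and 3 lower at SS (10.4%), whereas at CTRL 13 of them were higher and 1 lower, beside 0.848% higher and 1.2% lower among all tested probe sets. The 61 cell wall probe sets had 4 falls, expansin-like protein A and 3 glycine- or proline-rich proteins, at -1.0 to -1.84 (6.56%). Lipid transfer and lipid metabolism had 41, with 1 rise (a GDSL lipase, 1.01 ± 0.26) and 3 falls (9.76%). None of the 46 transporter probe sets was called, and their median was 0.35. Of the 34 ribosomal and nucleolar probe sets 2 were higher and 3 lower (14.7%), and 32 of the 34 differences were negative, with a median of -0.44. Protein kinases and phosphatases had 46, with CIPK10 lower and 3 probe sets higher, receptor-like protein kinase 5 and 2 of the protein kinase family (1.09 ± 0.25 and 1.19 ± 0.31), or 8.7% called. Heat shock proteins and chaperones had 12, with the Hsp70 binding protein as the only call (8.33%). Tubulins and actins (13), senescence and nitrogen remobilisation (7), and the 38 candidates for the D genome with a PCR result (not all of them assigned to it) had 0 calls, with a median of 0.11 for the last. The study had picked the D genome candidates for signal well above background on all CS and CS_5AL-10 arrays. Large falls in CS_5AL-10 were thus selected against in that list.

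**Figure D4:**
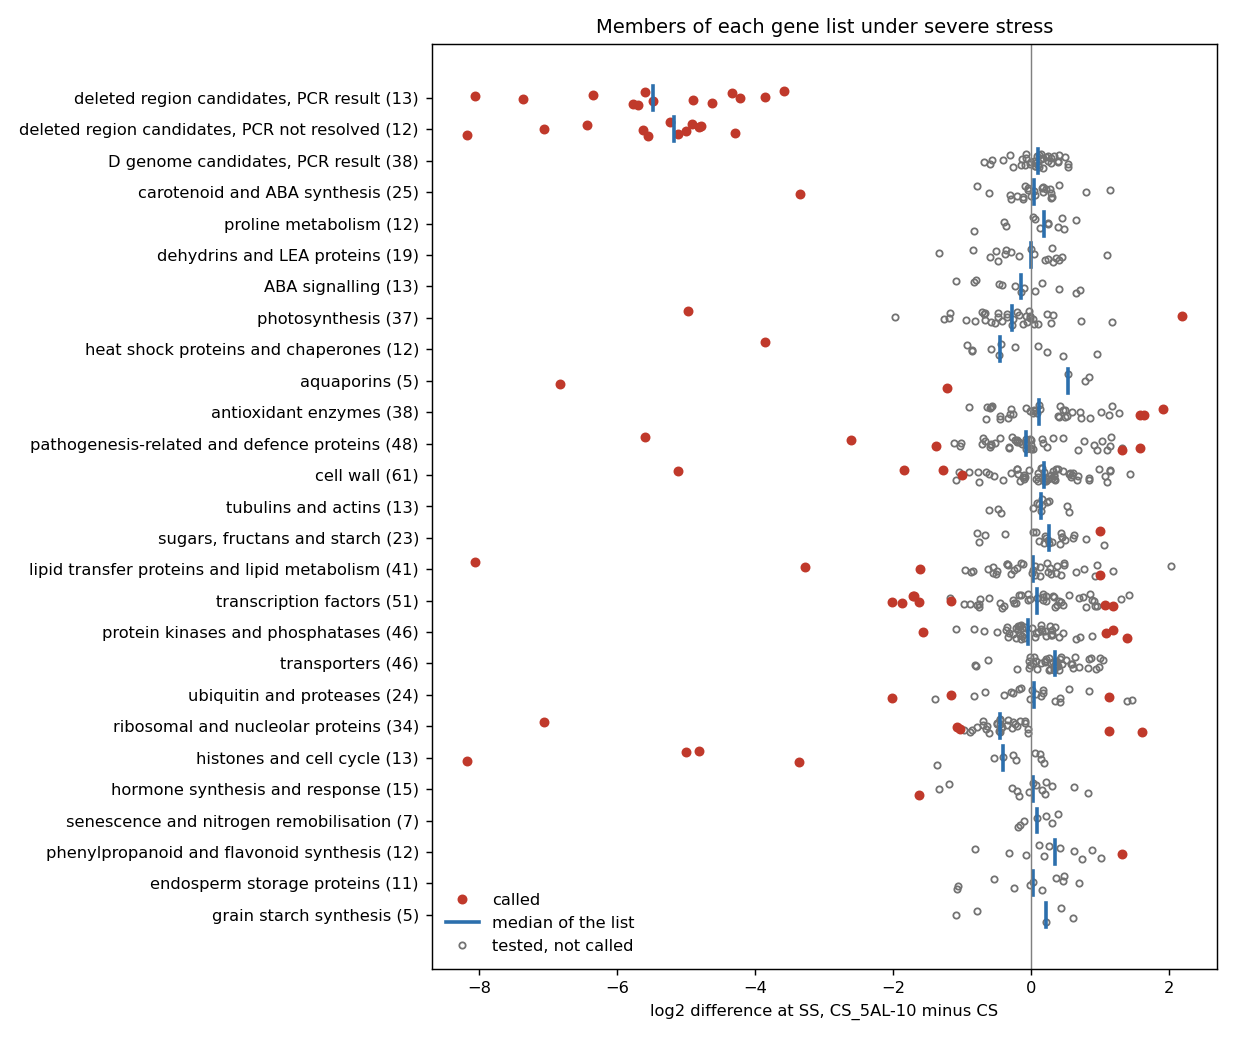
The log2 difference at SS, CS_5AL-10 minus CS, of every tested probe set in each gene list, with the number tested in brackets, red where called, open where not, and a blue bar at the list's median. The 25 candidates for the deleted segment, picked by the study for low signal in CS_5AL-10, lie between -3.58 and -8.17. Most members of the other lists lie within 1 log2 unit of 0 beside single large falls, several of which are these same candidates.

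Most of the falls at SS were called lower without stress as well. At CTRL, on other arrays of the same 2 genotypes, 699 probe sets (2.05%) were called, 289 higher and 410 lower, and at MS 1356 (3.98%), 413 higher and 943 lower. Falls made up 1.2% of the tested probe sets at CTRL and 2.77% at MS, and rises 0.848% at CTRL and 1.21% at MS. The split at MS moved with the scaling, to 658 higher and 627 lower without centring and 610 higher and 708 lower with quantile normalization, and the median of all tested probe sets at MS was -0.126 with centring and 0.055 without it. Of the 474 falls at SS, 276 were also called lower at CTRL (58.2% of the falls at SS and 67.3% of those at CTRL), and 368 at MS (77.6% and 39.0%). In all 3 treatments 265 were lower. Of the 260 rises at SS, 59 were also called higher at CTRL (22.7% of the rises at SS and 20.4% of those at CTRL) and 99 at MS (38.1% and 24%). The sign at CTRL was the same for 93.9% of the falls, where 41.0% of all tested probe sets were negative at CTRL, and for 88.1% of the rises, where 59.0% were positive. The median difference of the falls was -1.80 at SS and -1.47 at CTRL, and that of the rises 1.38 at SS and 0.68 at CTRL. Members chosen by their size at SS tend to be smaller elsewhere for that reason alone, so these medians do not measure a change. Across the 34089 tested probe sets the differences at SS and at CTRL had r = 0.515 and rho = 0.319, a description over probe sets of the same 2 lines. The endosperm level at CTRL was 8.24, 9.77 and 10.53 in CS_5AL-10 and 10.82, 10.70 and 11.31 in CS, and its part in these counts was not tested.

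**Figure D5:**
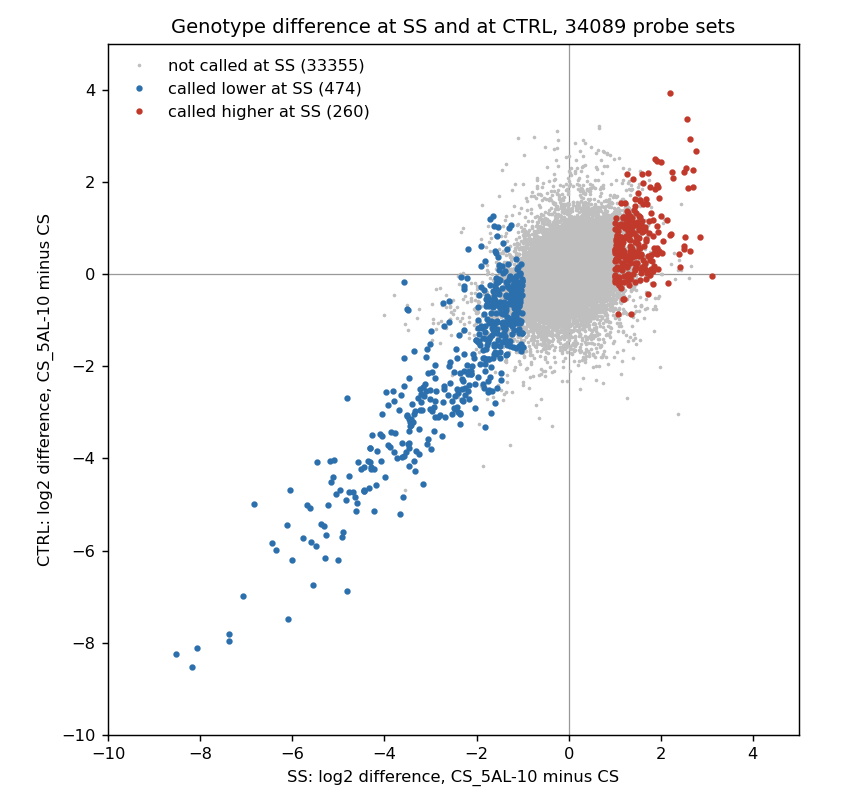
The log2 difference, CS_5AL-10 minus CS, at SS (horizontal) and at CTRL (vertical) for 34089 tested probe sets, with the 474 called lower at SS in blue and the 260 called higher in red. The large falls lie along the diagonal down to -8.53 at SS, while the red points spread from about 0 upwards at CTRL.

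The test of the difference itself, SS against CTRL, called 3 of 34089 probe sets (0.0088%), and 2524 had an unadjusted p under 0.05 (7.40%). SS against MS gave 0 calls with limma, with 2439 probe sets at an unadjusted p under 0.05 (7.15%). None of the 3 carries a name. For Ta.5518.1.S1_at the values at SS were 549, 161 and 207 in CS_5AL-10 and 528, 490 and 656 in CS, which overlap, while at CTRL the genotypes were far apart, with 8025, 8519 and 4892 in CS_5AL-10 and 1177, 1262 and 1082 in CS. Its difference was -0.96 at SS and 2.58 at CTRL. Ta.27596.1.S1_at was at 1310, 1731 and 1402 in CS_5AL-10 at SS, below the 3270, 2759 and 2871 of CS, while at CTRL its 1789, 1726 and 1921 in CS_5AL-10 lay above the 1173, 693 and 1066 of CS. TaAffx.128896.8.A1_at did the opposite, with 5474, 4758 and 5486 in CS_5AL-10 and 2437, 2274 and 1681 in CS at SS, and 2127, 1181 and 2166 in CS_5AL-10 and 2581, 3855 and 3516 in CS at CTRL. Each of these 3 calls was lost in at least 5 of the 12 fits that left out 1 array.

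The 2 largest rises without a name at SS were dim in CS. Ta.9172.2.S1_at had 567, 260 and 740 in CS_5AL-10, against 18.5, 157 and 20 in CS (3.11 ± 0.63, limma adjusted p = 0.0048), with differences of -0.04 at CTRL and 0.31 at MS. TaAffx.16965.1.S1_at had 291, 166 and 667 in CS_5AL-10, against 8.34, 64.5 and 41.6 in CS (2.86 ± 0.46, limma adjusted p = 0.00033), with 0.81 at CTRL and 2.23 at MS. For both, CS_5AL-10 replicate 2 was the lowest CS_5AL-10 array and CS replicate 2 the highest CS array, the arrays with the most and the least endosperm signal of their genotype.

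The 6 arrays were alike in brightness, with median intensities of 77.5 to 87.6, and the replicates correlated at r = 0.934 to 0.958 within CS_5AL-10 at SS and 0.908 to 0.953 within CS at SS. No detection calls were used, so an intensity under 100 was not shown to lie above background. With 3 arrays a group, the number of arrays limits the precision.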

How the data were processed

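Glume RNA was hybridised to the Affymetrix Wheat Genome Array, in biological triplicate for 3 genotypes at CTRL, MS and SS (27 arrays). The authors deposited 1 table of linear MAS5 intensities (version not given in the sources used here), scaled per array, whereas the values in their paper came from RMA. Per the methods and labels replicates were not pooled. Here 111 control probe sets were dropped, log2(intensity + 16) was taken, and a shift brought the arrays to equal medians. A probe set was tested if its 3 replicates of any 1 of the 9 conditions all exceeded the medians of their arrays. Group means over all 27 arrays were fitted in limma 3.58.1 (R 4.3.3) with a variance trend and Benjamini-Hochberg adjustment. The script was tested on simulated data.

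Alternatives were the methods' t-test, other samples in the fit, filters, offsets and scalings, the replicate number as a block, an endosperm covariate, and leaving out each array. Leaving out the array with the most endosperm signal in each genotype together, and centring on the tested probe sets, were added after seeing the data. Same-numbered arrays did not deviate together (r = -0.049, -0.533 and -0.144 for numbers 1, 2 and 3 at SS), and the main fit did not pair them. With 3 arrays a group these values cannot exclude a shared pot or day, which the labels do not give.

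Named transcripts followed a rule: the study's PCR list, the 15 largest named rises and falls with separated replicate values, at most 4 probe sets per gene list, the largest named and called changes between treatments, the 2 largest unnamed rises and falls, and named probe sets low in 1 genotype. Members of gene lists were chosen by name patterns. The members, lists and rule were chosen with earlier results of these data known. Gene symbols come from the platform annotation (1273 of 61290 probe sets, 1272 matched to the RefSeq gene table of assembly IWGSC CS RefSeq v2.1). Other names came first from the study's lists of ABA, proline, deleted segment and D genome probe sets. The rest came from its Arabidopsis matches, of which a part was held (1067 probe sets). Named candidates for the deleted segment mostly owe their names to the list of candidates itself. A probe set with no name here may still have a gene. No sequences are shown.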

Additional observations from a re-analysis of the deposited data

Results flagged for a closer look

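For 3 probe sets the difference between CS_5AL-10 and CS itself differed between SS and CTRL by the test of that term (limma, 34089 probe sets tested). The difference at SS minus that at CTRL was -1.89 for Ta.27596.1.S1_at (adjusted p = 0.048), -3.54 for Ta.5518.1.S1_at (adjusted p = 0.048) and 2.22 for TaAffx.128896.8.A1_at (adjusted p = 0.023). Over the 12 fits that each left out 1 array, the value ran from -2.08 to -1.62 for Ta.27596.1.S1_at with its call lost in 9, from -4.02 to -3.20 for Ta.5518.1.S1_at with its call lost in 7, and from 1.97 to 2.35 for TaAffx.128896.8.A1_at with its call lost in 5. The calls of Ta.5518.1.S1_at and TaAffx.128896.8.A1_at were both lost without CS_5AL-10 replicate 3 or CS replicate 3 at SS, and without CS_5AL-10 replicate 2, CS replicate 2 or CS replicate 3 at CTRL. That of Ta.5518.1.S1_at was also lost without CS replicate 1 at SS or CS_5AL-10 replicate 1 at CTRL, and that of Ta.27596.1.S1_at without all of these arrays and CS_5AL-10 replicate 1 at SS or replicate 3 at CTRL.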

How the results depend on the processing

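None of the differences of the 41 probe sets followed at SS changed sign under an alternative, while list medians close to 0 did, such as that of carotenoid and ABA synthesis (0.05, and -0.01 without centring). At SS, 734 probe sets were called (260 higher, 474 lower). The methods' t-test left 3 (0 higher, 3 lower), with 3752 at an unadjusted p under 0.05. The 6 arrays alone left 341 (69 and 272), of which 327 were among the 734, and no fold threshold gave 1219 (494 and 725). Other filters, offsets and scalings, the 18 bread wheat arrays, and the endosperm covariate gave 582 to 863. Leaving out each array in turn gave 519 to 737 in all, 140 to 263 higher and 354 to 476 lower, with 140 higher without CS_5AL-10 replicate 1 and 145 without CS_5AL-10 replicate 3. With the replicate number as a block 692 were called at SS (241 higher, 451 lower), 652 at CTRL, 1304 at MS, 0 for SS minus MS and 0 for SS minus CTRL. The 3 calls of SS minus CTRL became 0 with the methods' t-test, 0 with the arrays compared alone, 1 with an offset of 1, 16 with an offset of 64, 16 without centring, 17 with quantile normalization, 16 with the covariate, and 0 to 14 without 1 array. SS minus MS gave 0 under each alternative run for it (the filters, offsets, scalings and the block). The 699 calls at CTRL became 462 with the filter at the 75th percentile. At MS the split of 413 higher and 943 lower became 658 and 627 without centring and 610 and 708 with quantile normalization. The rank rule gave 8 with the 25th percentile as the limit for low, 15 with the 90th for expressed, and 55 to 67 without 1 array, against 53, and 0 with the genotypes exchanged each time. Of the 41 probe sets, 28 were called under every alternative other than the methods' t-test that tested them (19 for most, and 18 where the filter at the 75th percentile left a probe set out). Many of the 41 are candidates that the study had picked as low in CS_5AL-10 on these arrays. Causes of these shifts were not tested.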

Other observations

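Among genes placed on chromosomes other than 5A, 11 probe sets were called higher and 7 lower in CS_5AL-10 at SS. S-adenosylhomocysteine hydrolase (SAHH, on 2B), which recycles the product of methyl transfer, was higher by 1.16 at SS, with 0.25 at CTRL and 0.81 at MS. LOC606363 on 3B was lower by -2.28 at SS and -0.26 at CTRL, and LOC606323 on 5B by -1.91 at SS and -0.27 at CTRL. LOC543018 on 3D (2.25 at SS and 2.22 at CTRL) and LOC100037528 on 2B (2.60 and 1.86) had the largest rises among placed genes. These genes were chosen after their values were seen.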
